A study of Homo sapiens with 9 samples.

Results

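The peaks of chromosome 16 are all RNA polymerase II (RNAPII) peaks that 5 chromatin immunoprecipitation (ChIP-seq) lists place on that chromosome, 5025 of the 142069 peaks in all. The control shRNA list held 196 of them, 3.71% of its 5287 peaks. The RECQL5 shRNA5 list held 948 (4.0% of 23698) and the shRNA7 list 1223 (3.81% of 32124). The list without doxycycline held 1774 (3.77% of 47060) and the doxycycline list 884 (2.61% of 33900). The chromosome was chosen from the doxycycline contrast itself, in which it had the lowest fold in peak number of the 22 autosomes. Every difference between the lists with and without doxycycline is therefore a description of values that chose the chromosome. The hairpin lists were not used in that choice.

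The cells were HEK293, a line from human embryonic kidney. The hairpin lists came from cells infected with lentivirus carrying a control shRNA (the empty pLKO.1 vector in the study's methods), RECQL5 shRNA5 or RECQL5 shRNA7. The doxycycline lists came from HEK293 T-REx cells with a stably selected pcDNA4/TO plasmid for full-length RECQL5, grown with doxycycline at 0.0 or 1.0 ng/ml. Both T-REx groups carried the plasmid, and the deposited lists contain no measurement of the RECQL5 level. The 4 libraries of non-specific IgG served as the background of the peak calls, and 1 untreated IgG library is labelled as the control of both doxycycline lists. Each group was 1 library, so nothing below has a replicate check, and each interval is a 95% interval for counting error only.

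RNAPII transcribes protein-coding genes. It gathers at promoters, which gives tall ChIP peaks, and spreads more thinly over gene bodies while it elongates. RECQL5 is a DNA helicase of the RecQ family that binds RNAPII. Chromosome 16 is a gene-rich chromosome, and its short arm, 16p, is known for blocks of duplicated sequence that carry the NPIP family (nuclear pore complex interacting protein), whose copies are nearly identical. Short reads from such copies are difficult to place, so the assignment of a peak to 1 copy is uncertain.

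To show what the peaks cover, 5 windows of 101 bases centred on a summit are given below from the plus strand of the GRCh37 reference (hg19). The capitals mark the 36-base word centred on the summit, whose copies in the genome are counted below. The windows are chosen examples and not typical peaks. Of the peaks of the chromosome, 24.9% without doxycycline and 7.47% with it lay in repeated sequence, as defined further on. The first 4 windows lie under the peak with the most tags among those found only without doxycycline on 3 NPIP genes and on ANKRD11, a chromatin regulator gene. The CNOT1 window lies under the strongest peak found only with doxycycline on that gene, which encodes the scaffold of the CCR4-NOT deadenylase.

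NPIPB5, chr16:22547026-22547126: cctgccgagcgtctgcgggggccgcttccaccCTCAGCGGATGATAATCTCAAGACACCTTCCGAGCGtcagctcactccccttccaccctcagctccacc
NPIPB3, chr16:21451056-21451156: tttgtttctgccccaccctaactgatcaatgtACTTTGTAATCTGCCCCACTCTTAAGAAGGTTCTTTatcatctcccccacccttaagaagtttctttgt
NPIPB13, chr16:30249100-30249200: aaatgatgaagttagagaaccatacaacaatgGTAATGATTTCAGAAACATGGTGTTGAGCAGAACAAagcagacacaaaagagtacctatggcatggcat
ANKRD11, chr16:89495804-89495904: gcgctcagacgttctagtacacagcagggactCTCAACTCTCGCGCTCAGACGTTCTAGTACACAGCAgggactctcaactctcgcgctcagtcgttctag
CNOT1, chr16:58593385-58593485: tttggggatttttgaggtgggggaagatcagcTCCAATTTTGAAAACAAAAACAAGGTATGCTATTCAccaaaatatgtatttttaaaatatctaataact

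The capitals of the NPIPB5 window, in its coding sequence, occur 63 times in the genome, all on chromosome 16, and within 4 of the 19 protein-coding NPIP genes of the chromosome. Those of NPIPB3 and NPIPB13, both in introns, occur 8 and 12 times, and the NPIPB13 word was found in 10 of the NPIP genes. The ANKRD11 word, in an intron, occurs 9 times. The CNOT1 word, also in an intron, occurs 1 time. The peak at the NPIPB5 window held 89 tags and those at NPIPB3, NPIPB13 and ANKRD11 held 30, 19 and 20. The CNOT1 peak held 52 tags.

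With doxycycline chromosome 16 had 884 peaks in place of 1774, a fold of 0.498 (0.460 to 0.540). The other 21 autosomes together went from 43969 to 32009 peaks, a fold of 0.728 (0.718 to 0.739). Singly they ranged from 0.582 on chromosome 4 to 0.917 on chromosome 21. The summed tags inside peaks of chromosome 16 went from 45245 to 34829, a fold of 0.770, where the other autosomes ranged from 0.829 on chromosome 4 to 1.34 on chromosome 10. The length covered by peaks went from 1479 to 811.1 kb. Chromosome 16 thus had the lowest fold of the 22 autosomes in number of peaks, in tags and in covered length. It holds 9.37 protein-coding genes per Mb, against a median of 5.61 on the other autosomes. Its fold over that of the 10 other autosomes with a gene density above this median was 0.696, close to the 0.684 over all 21.

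The peaks of the list without doxycycline were mostly weak. On chromosome 16 their median was 13 tags, against 23 with doxycycline, and the smallest peak held 9 tags without doxycycline and 11 with it. The same medians on the other autosomes were 14 and 23. The lists therefore did not reach down to the same number of tags, on this chromosome as elsewhere.

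The arms of the chromosome are separated in GRCh37 by an assembly gap from position 35285802 to 46385801. The short arm, 16p, went from 1112 to 514 peaks, a fold of 0.462 (0.416 to 0.513). The long arm, 16q, went from 662 to 370, a fold of 0.559 (0.492 to 0.635). Tags in peaks had a fold of 0.701 on 16p and 0.911 on 16q. Of the 890 peaks by which the lists differed on chromosome 16, 598 (67.2%) were on 16p.

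The chromosome was then cut into bins of 5 Mb, named p1 to p8 from the tip of 16p and q1 to q10 towards the tip of 16q. Bin q1 starts at 45 Mb, and q10 holds the short remainder from 90 Mb. In 10 bins there were at least 50 peaks without doxycycline. The lowest folds were in 3 neighbours on 16p. Bin p4 (15 to 20 Mb) went from 116 to 33 peaks, a fold of 0.284 (0.194 to 0.418). Bin p5 (20 to 25 Mb) went from 163 to 50, a fold of 0.307 (0.224 to 0.421). Bin p6 (25 to 30 Mb) went from 192 to 86, a fold of 0.448 (0.348 to 0.577). These bins contributed 302 of the 890 fewer peaks, or 33.9%.

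Among the other bins with at least 50 peaks, the gene-rich tip of 16p, p1, went from 333 to 163 peaks (0.489) and the last full bin of 16q, q9, from 173 to 86 (0.497). Bin q5 had a fold of 0.527, p7 of 0.573, p3 of 0.635 and q6 of 0.638. Only q3 (55 to 60 Mb) lay above the other autosomes pooled, with 69 and 59 peaks (0.855, 0.605 to 1.21). Its fold rested on a single gene, as was computed after its value was seen. Without the peaks on CNOT1 the bin went from 51 to 26 (0.510, 0.319 to 0.814). The remaining bins held 1 to 44 peaks without doxycycline, and of these q10, at the tip of 16q, went from 29 to 4. The plot of peaks by bin shows both lists side by side.

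**Figure D1:**
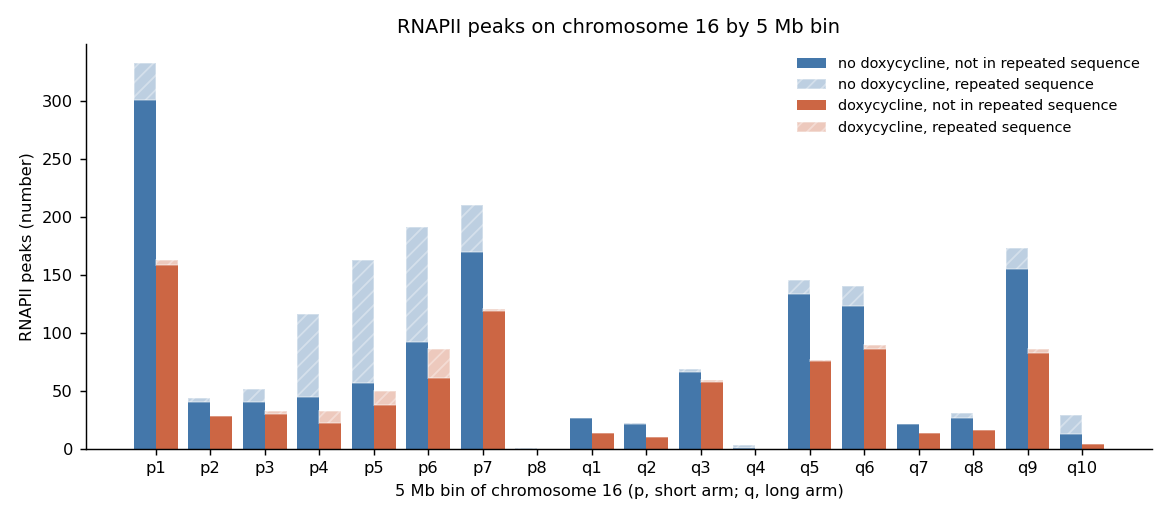
RNAPII peaks (number, y axis) in each 5 Mb bin of chromosome 16 (x axis) without doxycycline (blue) and with it (orange), where the hatched part of a bar counts peaks in repeated sequence. In p4, p5 and p6 the blue bars are mostly or about evenly hatched (71, 106 and 100 of 116, 163 and 192 peaks), while in p1 only a small part is.

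Of the 10 bins, 9 lay below the pooled fold of the other autosomes, where 49.8% of 249 such bins did. A fold below 0.5 was found in 5 of the 10 bins and in 7.23% of the bins of the other autosomes. Both counts come from the contrast that chose the chromosome, and nothing is read from them. Bins p4 and p5 had the lowest folds of all 259 bins after the bin of chromosome 1 from 140 to 145 Mb, which went from 66 to 16 peaks (0.242). The plot of bin folds shows where each bin of chromosome 16 fell.

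**Figure D2:**
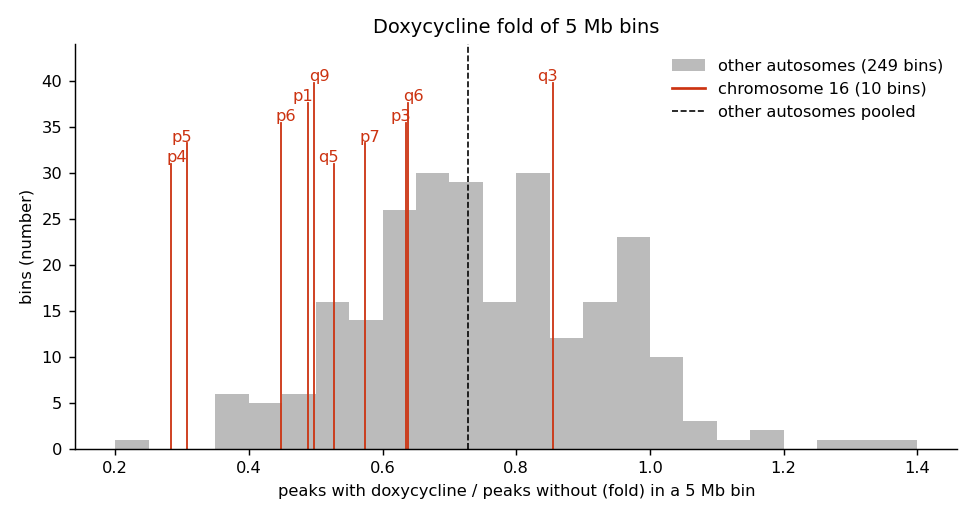
Number of 5 Mb bins (y axis) of the other autosomes by doxycycline fold in peak number (x axis), with each of the 10 bins of chromosome 16 as a red line and the pooled fold of the other autosomes, 0.728, dashed. Lines p4 and p5 stand left of all grey bars except 1 bin, and only q3 is right of the dashed line; line heights carry no value.

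A peak was called repeated when at least 50% of the 36-base words around its summit occur more than 1 time in GRCh37. Without doxycycline 441 of the 1774 peaks of chromosome 16 were repeated (24.9%, 22.9 to 26.9), the highest share of the 22 autosomes, against 10.7% on the other autosomes pooled. With doxycycline 66 of 884 were (7.47%), against 3.78%. Repeated peaks thus had a fold of 0.150 (0.116 to 0.194) on chromosome 16 and of 0.257 (0.241 to 0.274) on the other autosomes. They made up 375 of the 890 fewer peaks (42.1%), against 29.3% of the fewer peaks of the other autosomes. In the hairpin lists repeated peaks were 10 of 196 with the control shRNA (5.10%), 54 of 948 upon shRNA5 (5.70%) and 102 of 1223 upon shRNA7 (8.34%).

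Among peaks outside repeated sequence the doxycycline fold of chromosome 16 was 0.614 (0.563 to 0.669), from 1333 to 818 peaks, against 0.785 (0.773 to 0.796) for the other autosomes. It was then close to those of chromosome 3, at 0.627, and chromosome 4. The folds of the arms were then nearly equal, at 0.613 (0.546 to 0.689) on 16p and 0.614 (0.539 to 0.700) on 16q. Likewise the region from 15 to 30 Mb had a fold of 0.624 (0.497 to 0.782), from 194 to 121 peaks, and the rest of the chromosome 0.612 (0.557 to 0.672). The repeated peaks of the 15 to 30 Mb region went from 277 to 48, a fold of 0.173 (0.128 to 0.235). In peak number the lower folds of 16p and of its 15 to 30 Mb region, each taken whole, were thus found only with repeated peaks included. By bin outside repeated sequence, p4 still went from 45 to 22 peaks (0.489, 0.295 to 0.810), while p5 and p6 had folds of 0.667 and 0.663. In 8 bins there were at least 50 such peaks without doxycycline. Of these 8, p1 (0.528) and q9 (0.535) had the lowest folds. In tags a gap stayed outside repeated sequence, with a fold of 0.826 on 16p and 0.969 on 16q, and of 0.754 from 15 to 30 Mb and 0.903 on the rest of the chromosome. How reads with several matches were treated in the alignment was not tested.

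**Figure D3:**
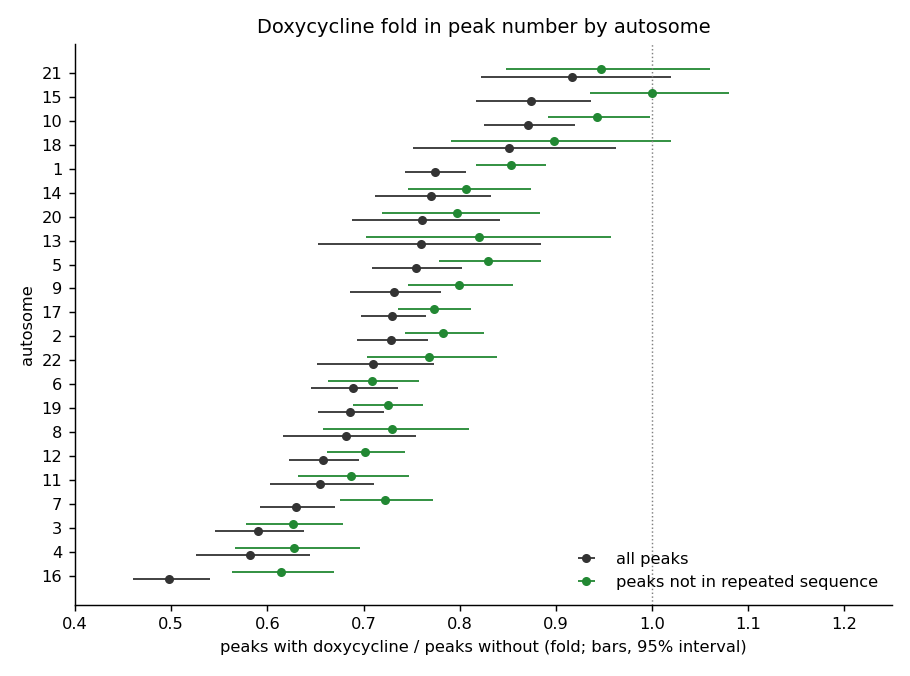
Doxycycline fold in peak number (x axis, with 95% intervals for counting error) for each autosome (y axis, ordered by the fold of all peaks), over all peaks in black and over peaks outside repeated sequence in green. Chromosome 16 is lowest in black at 0.498, and in green, at 0.614, its interval overlaps those of chromosomes 3 and 4.

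The NPIP genes were examined after their values had been seen. Peaks touching the 19 genes numbered 70 without doxycycline and 5 with it, and 69 and 4 of these were repeated. Of the 19 genes 15 had fewer peaks with doxycycline, none had more, 1 had 1 peak in each list (NPIPB2) and 3 had no peak in either. Of all genes with a peak in either list, 60.4% had fewer on chromosome 16 and 53.9% on the other autosomes. NPIPB5 had 15 peaks without and 2 with doxycycline, NPIPB13 had 10 and 0, and NPIPB3 had 9 and 1. NPIPB12 and NPIPA9 each had 6 and 0, and NPIPB4 had 5 and 0. In the hairpin lists the peaks touching NPIP genes numbered 1 in the control, 6 upon shRNA5 and 14 upon shRNA7. The doxycycline fold of the chromosome without all of these peaks was 0.516.

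Long stretches without any doxycycline peak lay at these genes. The longest run of neighbouring peaks found only without doxycycline held 31 peaks over 129 kb (chr16:29471343-29600053), and 30 of the 31 were repeated. It covers SULT1A4, a sulfotransferase gene, and NPIPB12. Such runs of 27, 26 and 23 peaks lay over NPIPB4, over SULT1A3 with NPIPB13, and over NPIPB3, and all of their peaks were repeated. In the first run the hairpin lists had 0 peaks in the control, 1 upon shRNA5 and 7 upon shRNA7. The next run, of 21 peaks over 242 kb at ANKRD11, differed in that only 5 of its peaks were repeated and 2 doxycycline peaks lay inside it, between the peaks of the run.

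By position in genes, the fall was smallest at promoters. Peaks within 500 bp of the transcription start site (TSS) of any protein-coding isoform went from 526 to 379, a fold of 0.721 (0.631 to 0.822), against 0.807 on the other autosomes. Peaks in the remaining gene bodies went from 891 to 407, a fold of 0.457 (0.406 to 0.514), against 0.744. That fold was 0.164 with a fold enrichment of at least 10 and 0.722 with lists of equal length. Peaks outside protein-coding genes went from 357 to 98, a fold of 0.275 (0.220 to 0.343), against 0.511. Outside repeated sequence the folds were 0.752 at promoters, 0.537 in gene bodies and 0.515 outside genes, against 0.813, 0.799 and 0.624 on the other autosomes. The promoter fold was nearly equal on both arms, 0.720 on 16p and 0.721 on 16q, while the gene-body fold was 0.411 on 16p and 0.522 on 16q. As a result promoter peaks made up 29.7% of the list without doxycycline and 42.9% of the list with it.

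A no doxycycline peak was counted as kept when a doxycycline peak overlapped it by at least 1 bp. On chromosome 16 646 of 1774 were kept (36.4%, 34.2 to 38.7), against 45.9% on the other autosomes. The share rose with the strength of the peak. Of the 725 peaks with 9 to 11 tags 12.4% were kept, of the 312 with 12 to 15 tags 17.0%, of the 386 with 16 to 30 tags 48.4%, and of the 351 with over 30 tags 316 were kept (90%, 86.4 to 92.7). The other autosomes had 20.7, 31.3, 55.8 and 92.4% in the same classes. For the strongest class outside repeated sequence the shares were 94.1% on chromosome 16 and 94.5% elsewhere, and for the repeated peaks of that class 63.0% and 66.6%. The gap to the other autosomes was widest for 12 to 15 tags and narrowest over 30 tags. For each kept peak, the summed tags of all doxycycline peaks touching it were divided by its own tags. A doxycycline peak counted in full for every kept peak it touched, so the ratio is not one of equal stretches. Its median log2 was 0.18 on chromosome 16 and 0.42 on the other autosomes, which ranged singly from 0.16 on chromosome 3 to 0.70 on chromosome 10.

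Peaks found only with doxycycline were fewer in proportion. They numbered 234 of 884 on chromosome 16 (26.5%, 23.7 to 29.5), against 38.6% elsewhere. In gene bodies lay 186 of the 234 (79.5%), against 85.8% of such peaks elsewhere. The gene CNOT1 alone held 24 of the 234.

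A peak that touched more than 1 gene was counted for each of these genes. Of the 847 protein-coding genes of chromosome 16, 566 had a peak in at least 1 of the doxycycline lists. Fewer peaks with doxycycline were found for 342 of them (60.4%), against 53.9% of the genes of the other autosomes, and more for 50 (8.83%), against 15.6%. These shares follow from the contrast that chose the chromosome, and nothing is read from them. No doxycycline peak was left on 137 of the 342 genes (40.1%), against 33.4% elsewhere. A lower number of peaks was not always a lower number of tags, since 42 of the 342 genes had more tags in their peaks with doxycycline (12.3%, against 16.8% elsewhere).

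**Figure D4:**
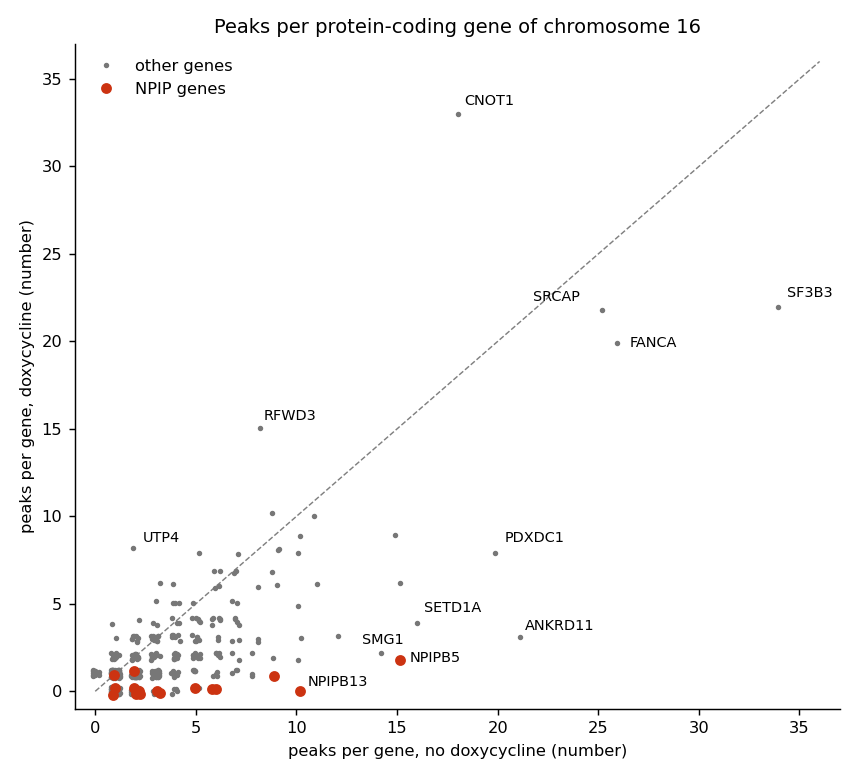
Peaks per protein-coding gene of chromosome 16 without (x axis) and with doxycycline (y axis), 1 point per gene with a small random shift to separate equal values, NPIP genes in red and equal numbers on the dashed line. ANKRD11 (21 and 3 peaks), NPIPB5 (15 and 2) and NPIPB13 (10 and 0) lie far below the line, most other NPIP genes lie near the origin, and CNOT1 (18 and 33) lies far above it.

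The largest fall was on ANKRD11, a 223 kb gene near the end of 16q, with 21 peaks and 302 tags without doxycycline and 3 peaks and 78 tags with it. Most of those 21 peaks were small, with a median of 11 tags, and the largest held 62. In the hairpin lists the gene had 1 peak in the control, 7 upon shRNA5 and 12 upon shRNA7. SETD1A, which encodes a histone H3 lysine 4 methyltransferase, went from 16 peaks to 4 and from 339 tags to 129, with 1 repeated peak. RBBP6, a ubiquitin ligase gene, went from 12 peaks to 3, and none was repeated.

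SMG1, the kinase of nonsense-mediated decay, went from 14 peaks to 2, of which 6 and 0 were repeated. PDXDC1, a decarboxylase-like gene, went from 20 to 8, of which 11 and 4 were repeated. EIF3C, a subunit gene of translation initiation factor eIF3, went from 15 to 6, and its near copy EIF3CL from 11 to 6. All peaks of EIF3C and EIF3CL in both lists were repeated, so the assignment of these peaks to 1 copy is uncertain. SMG1, PDXDC1 and EIF3C, like NPIPB5, NPIPB13 and NPIPB3, are among the 10 largest falls, and 6 of the 10 start between 15 and 30 Mb. Bins p4, p5 and p6 hold 37, 52 and 59 of the 847 protein-coding genes. The count of 6 comes from the contrast that chose the chromosome, and nothing is read from it.

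The last of the 10, SF3B3, shows that number and signal can part. SF3B3 encodes a subunit of the SF3b splicing complex. It went from 34 peaks to 22, but its tags went from 1164 to 1657 and the length its peaks covered from 37.9 to 41.0 kb. Of its 34 peaks 31 overlapped a doxycycline peak. FANCA, a Fanconi anaemia gene, went likewise from 26 peaks and 556 tags to 20 peaks and 644 tags.

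The largest rise was on CNOT1, with 18 peaks and 513 tags without doxycycline and 33 peaks and 1085 tags with it. In the hairpin lists it had 3 peaks in the control, 15 upon shRNA5 and 18 upon shRNA7. RFWD3, a ubiquitin ligase gene of the DNA damage response, went from 8 peaks to 15 and from 146 tags to 477. UTP4, a ribosome biogenesis gene, went from 2 to 8 and from 103 to 206 tags. All of these genes are on 16q. The remaining 7 of the 10 largest rises were by 2 or 3 peaks. They were PPP4C, PAQR4 and PKMYT1 (which overlap each other), HIRIP3, GSPT1, SPSB3 and NME3. NME3 had 1 peak of 286 tags without doxycycline and 3 with 77 tags in all with it. The peak of 286 tags was also counted for the neighbouring gene MRPS34.

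In p4, the lowest of the 10 bins with at least 50 peaks, the genes with the most peaks were PDXDC1, SMG1 and RRN3, an RNA polymerase I factor gene that went from 8 to 6 peaks and from 150 to 166 tags. In p6 they were EIF3C, EIF3CL and ATXN2L, which went from 9 to 7 peaks. In p5 they were NPIPB5, RBBP6 and NPIPB3.

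The peaks with the highest significance scores were found in both lists. By significance score (−10 log10 of the p-value), the first 3 of the doxycycline list included the peaks at RPL13 and RPS2, which encode ribosomal proteins. The RPL13 peak held 710 tags without doxycycline and 706 with it, and the RPS2 peak 685 and 625. In the list without doxycycline the first 3 included the peaks at RPS2 and at SNHG19, a snoRNA host gene next to the start of TRAF7. None of these peaks was repeated.

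Gene lists of the chromosome were set beside the medians over all genes with a peak, which were a change of -1 peak on chromosome 16 and on the other autosomes. The counts of members below stand beside the same shares over all genes with a peak, 60.4% with fewer and 8.83% with more peaks on chromosome 16 and 53.9% and 15.6% on the other autosomes. Of 11 ribosomal protein and translation genes, 10 had a peak, 5 had fewer with doxycycline and none more, with a median change of -0.500. RPS15A, for example, had 3 peaks in both lists, with 474 and 521 tags. All 11 RNA polymerase and transcription genes had a peak, 7 had fewer and 1 more (POLR3E, from 2 to 3), with a median change of -2.00. In that list CTCF went from 10 to 5 peaks and CREBBP from 11 to 10. Of 15 genome maintenance genes 14 had a peak, 7 had fewer and none more. CDT1, the replication licensing factor, had 1 peak in both lists, with 686 and 802 tags, while PLK1, a mitotic kinase, went from 7 to 3 peaks.

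Of 27 genes of the 16p11.2 interval, a region known for recurrent deletion and duplication, 20 had a peak, 10 had fewer and 3 more. MAZ, a zinc finger factor, had 687 tags without and 425 with doxycycline, and PRRT2, a synaptic gene next to it, had 561 and 236, each in 2 or 3 peaks. In the alpha globin cluster and its flank 9 of 16 genes had a peak, 5 had fewer and 1 more, and the most tags were on LUC7L, a flanking splicing gene (153 and 93). Of the 9 fragile site and other very long genes 6 had a peak, and all 6 had fewer with doxycycline (60.4% of all genes of the chromosome with a peak had fewer), from 10 peaks to 1 in all. ZFHX3, a transcription factor gene, went from 5 to 1, and WWOX, which spans a common fragile site, from 1 of 33 tags to 0. RBFOX1 and GRIN2A had 1 peak each without doxycycline, of 12 and 10 tags, where the smallest peak of the list held 9. Of all peaks of the chromosome with 9 to 11 tags, 12.4% were kept. With so few peaks, nothing is read from the count of 6 genes.

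The remaining lists held few genes with a peak. Of 11 metallothionein genes 2 had one, MT1X with 25 tags in both lists and MT2A with 19 and 22. Of 8 cadherin genes 2 had a single peak without doxycycline and none with it (CDH13 with 10 tags and CDH8 with 9). IRX5 and IRX3 were the only 2 of the 5 Iroquois and FTO genes with a peak, and IRX5 had 82 tags without and 18 with doxycycline. Of 12 blood and immune genes, ITGAL and CORO1A had 1 weak peak each without doxycycline, of 19 and 14 tags.

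The hairpin lists ask how RNAPII peaks differed when RECQL5 was depleted, and they did not enter the choice of the chromosome. Upon shRNA5 chromosome 16 had 948 peaks in place of 196, a fold of 4.84 (4.15 to 5.64), against 4.51 (4.37 to 4.65) on the other autosomes pooled. Upon shRNA7 it had 1223, a fold of 6.24 (5.37 to 7.25), against 6.10 (5.92 to 6.29). These folds depended on which peaks were counted, since with a fold enrichment of at least 10 they were 1.37 and 1.76, and with the 3 lists cut to equal length by score 0.985 and 1.02. The intervals overlapped for both hairpins, and chromosome 16 stood 10th and 8th from the lowest of the 22 autosomes. Its tags in peaks went from 26441 to 129566 and 281764. The single other autosomes ranged from 2.95 to 8.09 upon shRNA5 and from 2.87 to 14.9 upon shRNA7. The study's methods report more peaks for each of these libraries than the deposited lists hold, with the largest relative shortfall in the control. The genome-wide folds that the study reports are smaller than the pooled folds given here. Why the numbers differ was not tested.

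Within the chromosome the rise was larger on 16q than on 16p. Upon shRNA5 16q went from 71 to 465 peaks (6.55, 5.11 to 8.40) and 16p from 125 to 483 (3.86, 3.18 to 4.70), and the intervals did not overlap. Upon shRNA7 the folds were 8.68 (6.79 to 11.1) and 4.86 (4.01 to 5.89). Outside repeated sequence they were 6.59 and 3.73 upon shRNA5 and 8.63 and 4.46 upon shRNA7. Bin p7 (30 to 35 Mb) of 16p had 44 control peaks, the most of any bin, and 84 and 78 upon shRNA5 and shRNA7 (folds of 1.91 and 1.77). Tags in peaks of p7 rose more than peak number, from 7390 to 20110 and 38594. On 16q, bin q6 was also low in peak number, with folds of 3.78 and 3.48, while its tags went from 2502 to 12787 and 18551. The arms were not compared without these bins. Bin p1 went from 30 to 174 and 197, and q5 from 18 to 116 and 146. The 15 to 30 Mb region went from 40 to 171 and 248 peaks, with folds of 4.28 (3.04 to 6.02) and 6.20 (4.45 to 8.64), near those of the rest of the chromosome (4.98 and 6.25). The plot of the hairpin lists gives all bins.

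**Figure D5:**
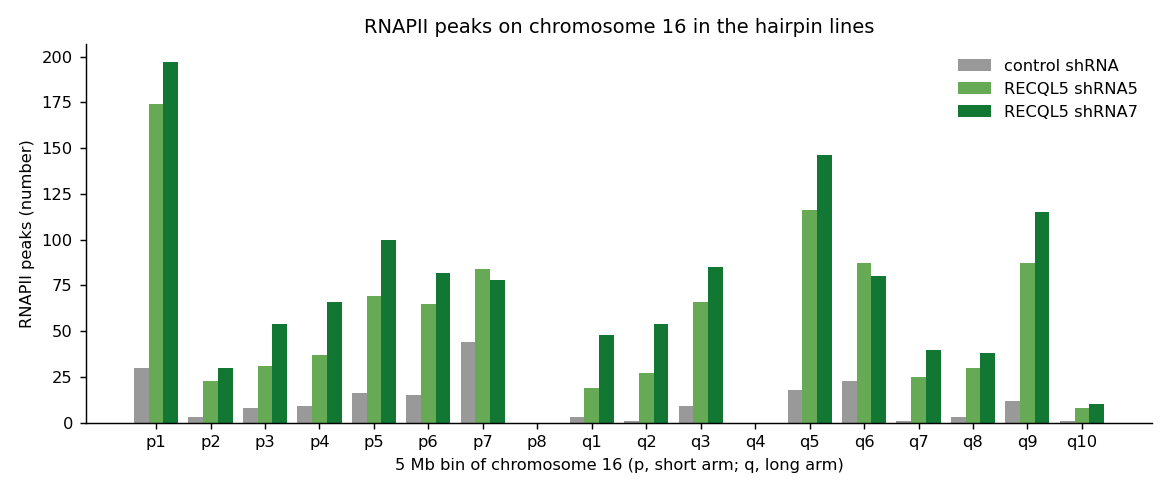
RNAPII peaks (number, y axis) in each 5 Mb bin of chromosome 16 (x axis) with the control shRNA (grey), RECQL5 shRNA5 (light green) and RECQL5 shRNA7 (dark green). Both RECQL5 hairpins stand above the control in each bin with a peak, and the control is highest in p7, with 44 peaks.

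Gene-body peaks rose more than promoter peaks with both hairpins. At promoters the folds were 3.27 (2.65 to 4.03) and 4.18 (3.41 to 5.13) upon shRNA5 and shRNA7, from 114 peaks in the control. In gene bodies they were 7.35 (5.65 to 9.55) and 9.62 (7.43 to 12.5), from 63 peaks. The other autosomes had 2.87 and 3.42 at promoters and 6.71 and 9.96 in gene bodies. More peaks than in the control were found for 387 of 477 genes upon shRNA5 (81.1%, against 82.2% on the other autosomes) and for 493 of 577 upon shRNA7 (85.4%, against 85.2%). Fewer were found for 14 (2.94%, against 2.83%) and 27 (4.68%, against 4.99%). All of these shares were near their background.

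The number of peaks did not follow tags on every gene in this arm either. SF3B3 had 5 peaks in the control, 10 upon shRNA5 and 2 upon shRNA7, with 826, 3502 and 1793 tags. Peaks of chromosome 16 had a median length of 1714, 1661 and 2233 bp in the 3 lists. The 3 control peaks with the highest significance scores lay at RPL13, RPS2 and RNF40, a ubiquitin ligase gene. The same genes held the 3 highest scores upon shRNA5. Upon shRNA7 they were at NDUFB10 with RPS2, at RPL13 and at JMJD8. Several of these peaks shared a score of 3100, so their order rests on the fold enrichment.

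The kept peaks were more often shared with the other arm than those found only without doxycycline. Of the 646 kept peaks of chromosome 16, 33.9% overlapped a control shRNA peak, 83.6% an shRNA5 peak and 87.3% an shRNA7 peak. Of the 1128 that were not kept the shares were 4.52, 27 and 45.7%. On the other autosomes they were 27.7, 73.3 and 78.9% for kept peaks and 3.59, 26.7 and 43.1% for the others.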

How the data were processed

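RNAPII ChIP-seq (antibody 4H8) and IgG libraries were made and sequenced on a GAIIX by the authors. Per the labels' processing notes, CASAVA 1.8, Bowtie 0.12.7 and MACS 1.4.2 were used with hg19, and peaks were called by the authors for each RNAPII library against IgG. The deposited lists give positions, unnormalised tag counts per peak, −10 log10 p-values (the significance score), the authors' fold enrichment as a ratio, and the FDR in percent. The study's methods give the reads per library only as an approximate range, close within each arm. Exact library totals were not used here, and only tags inside peaks are given.

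Peaks were assigned to bins and arms by their summit. GENCODE release 44 lifted to GRCh37 gave genes, each counted over its longest protein-coding transcript plus 500 bp before its TSS, and it may be newer than the authors' annotation. For repeated sequence, 36-base words were taken each 5 bp over 150 bp on either side of the summit and counted on both strands of GRCh37. Folds have 95% Wilson intervals turned into odds, and shares have Wilson intervals. No test was run and no p-value is given, since each group was a single library. Genes were named by rule: the 10 largest falls and the 10 largest rises in number of peaks, the 3 genes with most peaks in each of the 3 lowest bins, the genes at the 3 highest scores of each list, the genes under the longest run, and up to 4 members of each gene list. One gene that the rule names is not reported here. SRCAP is labelled in the gene plot, and the NPIP family was added, after values were seen. The chromosome, the gene lists and the rules were chosen with earlier results of these data known. The counting code was checked on simulated thinned lists. Python 3.11.15, numpy 2.4.6, pandas 2.3.3 and scipy 1.17.1 were used. The alternatives were stricter peaks, merged peaks, lists of equal length, other bins, overlaps, TSS windows and reference chromosomes, and, added after seeing the data, lists without repeated peaks, without the 15 to 30 Mb region and without peaks on NPIP genes.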

Additional observations from a re-analysis of the deposited data

How the results depend on the processing

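The doxycycline fold of chromosome 16 stayed below that of the other autosomes pooled in all 8 settings tried, and was the lowest of the 22 autosomes except with scores of at least 100, when chromosome 4 was at 0.603. With scores of at least 100 the folds were 0.607 for chromosome 16, 0.566 for 16p, 0.678 for 16q, 0.565 in gene bodies and 0.822 for tags, the kept share was 53.2%, and the hairpin folds were 6.88 and 10.5 upon shRNA5 and shRNA7. With a fold enrichment of at least 10 they were 0.271, 0.251, 0.303, 0.164 and 0.599, with 0.530 at promoters, 0.775 for chromosome 16 over the other autosomes (0.684 in the report's setting), 25.5% kept, and 1.37 and 1.76 for the hairpins. With the lists of an arm cut to equal length by score they were 0.691, 0.628, 0.803, 0.722 and 0.859, with 46.2% kept. The hairpin folds then were 0.985 (0.807 to 1.20) upon shRNA5, a value on the other side of 1, and 1.02 (0.838 to 1.24) upon shRNA7. Both intervals include 1, and equal lists leave no difference in total. An FDR of at most 5% gave 4.33 upon shRNA7. Merging peaks under 1 kb apart moved no result beyond its interval.

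Without repeated peaks, an alternative chosen after seeing the data like the next 2, the folds were 0.614 for chromosome 16, 0.613 for 16p, 0.537 in gene bodies and 0.879 for tags, 0.782 over the other autosomes, with 44% kept. Without the 15 to 30 Mb region they were 0.549, 0.538 for 16p and 0.849 for tags, 0.754 over the other autosomes, with 40.4% kept. Without peaks on NPIP genes the tag fold was 0.787. With all annotated transcripts the promoter and gene-body folds were 0.623 and 0.399. Overlap of at least 50% of both peaks kept 23.8%, and summits within 500 bp kept 30.1%. Bins with at least 20 peaks gave 15 of 16 below the pooled fold. The cause of these shifts was not tested.

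No paired analysis was possible because no group had more than 1 library, and for the same reason none could be left out. The intervals cover counting error only. The smallest peaks of the doxycycline lists hold 9 and 11 tags, and how such calls depend on depth was not tested.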
